A study of Mus musculus with 6 samples.

Results

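The genes described here are the simple-epithelial keratins Krt7, Krt8, Krt18, Krt19, Krt20, Krt23 and Krt80, chosen by name as the keratins linked to hepatocytes and bile ducts together with less common relatives. All 7 were found by their Ensembl identifiers among the 56305 genes of the deposited table. The series compared whole livers of 3 Vps15LKO male mice (AlbCre+;Vps15 f/f) with livers of 3 control males labelled WT. All mice were 5 weeks old, were fed ad libitum and were killed at Zeitgeber time 6 (ZT6). The Cre transgene is driven by the albumin promoter, which is active in hepatocytes from before birth, so the deletion was chronic. Whether the WT mice carried the floxed allele without Cre is not given in the sources used here.

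Keratins are the intermediate filament proteins of epithelial cells. A filament is built from obligate pairs of 1 acidic type I keratin (here Krt18, Krt19, Krt20 and Krt23) and 1 basic type II keratin (here Krt7, Krt8 and Krt80). Adult hepatocytes make a filament network of Krt8 with Krt18 only, whereas cholangiocytes, the cells that line bile ducts, add Krt7 and Krt19. Krt20 is best known from intestinal epithelium and urothelium, Krt23 from ductular cells of stressed liver, and Krt80 from a range of other epithelia. Misfolded Krt8 and Krt18 accumulate with the autophagy receptor p62 in the hepatocyte inclusions called Mallory-Denk bodies.

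The table held read counts divided by the authors' DESeq2 size factor for each library, here called normalized counts, and the whole reads behind them were recovered. Libraries held 16137093 to 18110223 reads on genes. Their size factors ran from 0.742 to 0.801 in WT and from 1.23 to 1.41 in Vps15LKO. Pik3r4, which encodes Vps15, had 508, 573 and 460 normalized counts in WT and 341, 362 and 355 in Vps15LKO, a log2 fold change of -0.54 ± 0.11 (SE; limma, Benjamini-Hochberg adjusted p = 0.0021), although under total-read scaling the same change was 0.19. The table gives 1 value per gene, so the deleted part of Pik3r4 could not be counted apart. The test covered the 15430 genes that reached 20 normalized counts in 3 or more livers. Of these, 33.5% were called higher and 33.0% lower in Vps15LKO, where a call needed a limma adjusted p below 0.05 together with a 1.2-fold change or more, and 36.4% had every Vps15LKO liver above every WT liver. Total-read scaling turned this split to 66.7% higher and 11.1% lower and moved the median of all genes by 0.72 on the log2 scale. p-values here rest on 3 mice per genotype, and limma draws the variance of each gene toward a trend over all tested genes.

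All 7 keratins were called higher in Vps15LKO, against 33.5% of all tested genes, and in all 7 every Vps15LKO liver lay above every WT liver, against 36.4% of tested genes. Krt8, Krt18, Krt19 and Krt23 reached 20 normalized counts in all 6 livers. Krt7 reached that level in 4 livers, and Krt20 and Krt80 reached it in the 3 Vps15LKO livers only, so these last passed the filter through the group in which they were high. Fold changes of low genes are on the log2(normalized count + 1) scale, which understates them. In bulk liver, more cells of a type and more RNA per cell cannot be told apart.

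**Figure D1:**
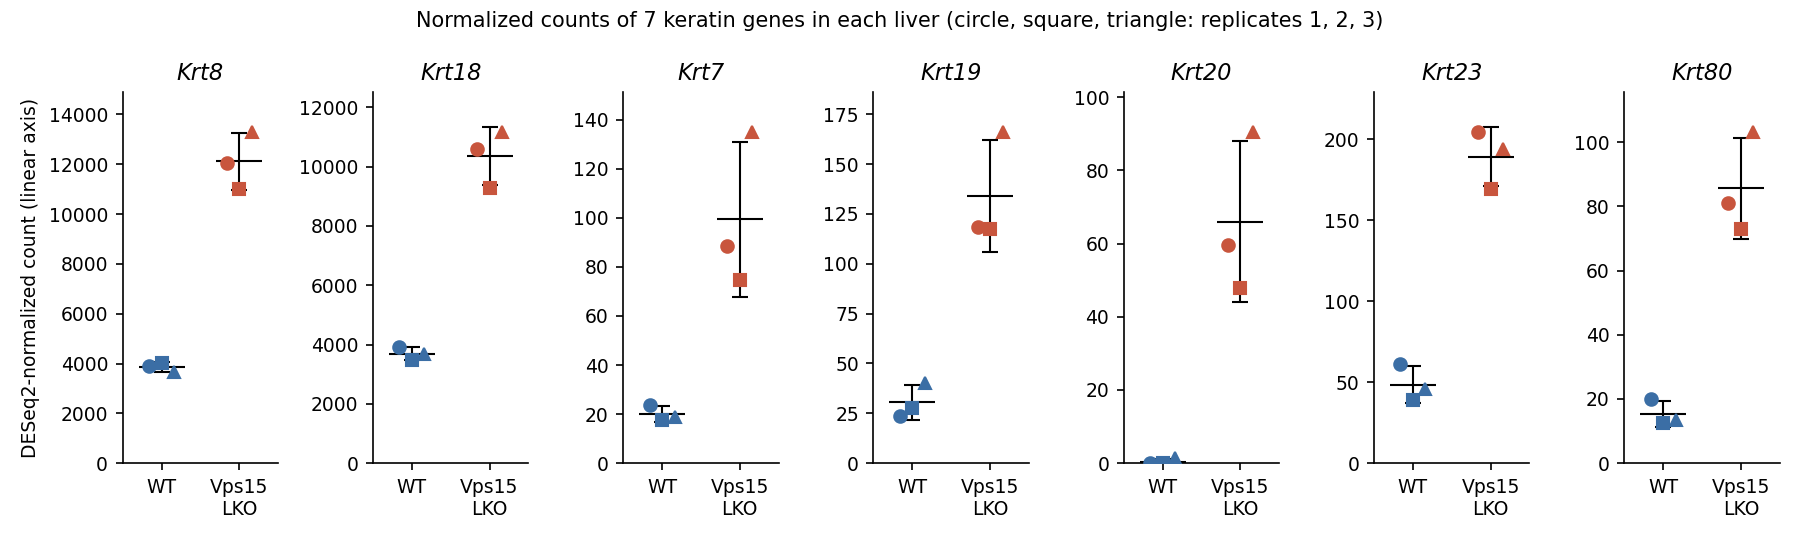
Normalized count (vertical axis, linear, starting at 0) of each keratin in every WT (blue) and Vps15LKO (red) liver, with circles, squares and triangles for replicates 1, 2 and 3 and bars for the mean ± SD (n = 3). In each panel the 3 red points lie above the 3 blue points, and for Krt20 the WT points lie at 0, 0 and 1.35.

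The hepatocyte pair carried most of the message of the 7 keratins in both genotypes. Krt8, the type II partner (ENSMUSG00000049382, chr15:101996698-102004482, minus strand, GRCm38), had 3901, 4025 and 3663 normalized counts in WT and 12044, 10991 and 13302 in Vps15LKO. The groups were far apart relative to their spread, with a log2 fold change of 1.65 ± 0.12 (SE; limma adjusted p = 7.91e-06). Krt18, its type I partner (ENSMUSG00000023043, chr15:102028180-102032027, plus strand), had 3925, 3494 and 3676 in WT and 10600, 9287 and 11179 in Vps15LKO. Its log2 fold change was 1.48 ± 0.12 (SE; limma adjusted p = 1.25e-05), and again no WT liver reached any Vps15LKO liver. Krt18 is the exception among type I genes in its position, since it lies 23697 bases beyond Krt8 at the end of the type II cluster on chromosome 15.

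The biliary pair was far less abundant than the hepatocyte pair and rose as well. Krt19, the type I keratin of bile ducts (ENSMUSG00000020911, chr11:100140810-100148665, minus strand), had 23.9, 27.5 and 40.4 normalized counts in WT and 118, 117.5 and 166 in Vps15LKO. Its log2 fold change was 2.11 ± 0.24 (SE; limma adjusted p = 9.14e-05). Krt7, the type II keratin of bile ducts (ENSMUSG00000023039, chr15:101411043-101430313, plus strand), had 23.9, 17.5 and 18.9 in WT and 88.6, 74.6 and 135 in Vps15LKO. Its log2 fold change was 2.22 ± 0.26 (SE; limma adjusted p = 0.000105). For both genes Vps15LKO replicate 3 was the highest liver, and even the lowest Vps15LKO liver stood well above the highest WT liver.

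Krt20 was the 1 keratin of the 7 that was close to silent in WT. Only 1 read fell on it in the 3 WT libraries together (normalized counts of 0, 0 and 1.35), whereas the Vps15LKO livers held 78, 59 and 128 reads, or 59.6, 47.8 and 90.5 normalized counts. Reads pooled over the 3 libraries of a genotype and divided by their summed size factors gave a ratio of 154, with a 95% exact counting interval from 27.4 to 6097 that covers counting error only. The fitted log2 fold change of 5.60 ± 0.48 (SE; limma adjusted p = 1.98e-05) depends on the pseudocount, ranging from 2.83 with a pseudocount of 10 to 8.03 with a pseudocount of 0.1. Krt20 (ENSMUSG00000035775) lies at chr11:99428403-99438150 on the minus strand. Its near neighbour Krt23 (ENSMUSG00000006777, chr11:99477974-99493137, minus strand), separated from it by 39823 bases, was already present in WT, at 61.0, 38.7 and 45.8 normalized counts. Krt23 stood at 205, 169 and 194 in Vps15LKO, and its log2 fold change was 1.96 ± 0.19 (SE; limma adjusted p = 3.82e-05).

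Krt80, the type II keratin at the opposite end of the chromosome 15 cluster from Krt8 (ENSMUSG00000037185, chr15:101347444-101370162, minus strand), had 19.9, 12.5 and 13.5 normalized counts in WT and 80.9, 72.9 and 103 in Vps15LKO. Its log2 fold change was 2.42 ± 0.25 (SE; limma adjusted p = 5.40e-05). As for the bile duct keratins, replicate 3 was the highest Vps15LKO liver. Vps15LKO replicate 3 was in fact the highest of its group for 6 of the 7 keratins and replicate 2 the lowest for all 7, while among all 5163 genes called higher 55.2% were highest in replicate 3 and 49.1% lowest in replicate 2. The exception was Krt23, which was highest in replicate 1.

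The proximal promoters of the neighbours Krt20 and Krt23 are shown because these genes lie side by side but differed in their WT level. The sequences are from RefSeq (GRCm38.p6), read 5′ to 3′ on the minus strand, at chr11:99438154-99438353 for Krt20 and chr11:99493138-99493337 for Krt23, ending 1 and 18 bases before the RefSeq start. Capitals mark matches to the letters searched.
Krt20: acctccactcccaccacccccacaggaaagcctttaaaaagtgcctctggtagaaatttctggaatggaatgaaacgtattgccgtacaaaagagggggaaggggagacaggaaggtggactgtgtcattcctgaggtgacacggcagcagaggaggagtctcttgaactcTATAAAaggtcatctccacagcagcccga
Krt23: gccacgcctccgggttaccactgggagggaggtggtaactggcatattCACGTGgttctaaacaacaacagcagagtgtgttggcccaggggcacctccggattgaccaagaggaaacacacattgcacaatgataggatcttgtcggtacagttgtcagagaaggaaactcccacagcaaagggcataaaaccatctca
The Krt20 window held the TATA letters TATAAA 29 to 24 bases before the start, and 13.6% of 32851 mouse promoters of 300 bases held them on either strand. The Krt23 window held CACGTG, the E-box letters that Bmal1–Clock can bind, 169 to 164 bases before the start, and 7.15% of promoters held it. Of the 5 keratins with a promoter entry (Krt7, Krt8, Krt18, Krt20 and Krt23), none of the others held CACGTG, Krt8 held TATAAA at the start itself, and none held TGANTCA, the AP-1 letters found in 7.81% of promoters. Krt7 held the GC box letters GGGCGG at 4 positions, and 35.7% of promoters held them at least 1 time. Motifs were searched on both strands and were chosen after the sequences were seen. A match is a description of letters, not of a bound site.

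Levels were put on 1 scale by dividing normalized counts by the length of each gene's merged exons. In WT the order, in normalized counts per kb, was Krt18 (2574 ± 151, SD, n = 3), Krt8 (1973 ± 94.0), Krt23 (31.0 ± 7.27), Krt19 (16.5 ± 4.70), Krt7 (2.85 ± 0.476), Krt80 (2.39 ± 0.628) and Krt20 (0.233 ± 0.404). Of these neighbours only Krt7 and Krt80 overlapped between livers. In Vps15LKO the order was Krt18 (7206 ± 675), Krt8 (6186 ± 591), Krt23 (121 ± 11.6), Krt19 (72.3 ± 15.03), Krt20 (34.2 ± 11.5), Krt7 (14.1 ± 4.50) and Krt80 (13.4 ± 2.46). There Krt20 stood above Krt7 and Krt80 instead of below them, and the neighbours Krt18 with Krt8 and Krt7 with Krt80 overlapped. That place of Krt20 rests on the length used. Merged exons of Krt7 and Krt80 span 7049 and 6393 bases, but their longest transcripts 4094 and 3919, while Krt20 has 1 transcript of 1927 bases. In normalized counts not divided by length, the Vps15LKO mean of Krt20 (66.0) lay below those of Krt7 (99.4) and Krt80 (85.7).

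Ratios within a library do not depend on the scaling between libraries, so the balance of partners was compared directly, by a two-sided exact permutation test over the 6 livers whose smallest possible p is 0.1. The Krt8 to Krt18 ratio, type II over type I in the hepatocyte pair, was 0.729, 0.845 and 0.731 per kb in WT and 0.834, 0.869 and 0.873 in Vps15LKO. The highest WT liver lay above the lowest Vps15LKO liver, and the log2 difference was 0.16 ± 0.073 (SE; exact permutation p = 0.2, adjusted over 4 ratios 0.4). The Krt7 to Krt19 ratio in the biliary pair was 0.263, 0.167 and 0.123 in WT and 0.197, 0.167 and 0.214 in Vps15LKO. The groups overlapped throughout, with a log2 difference of 0.13 ± 0.34 (SE; exact permutation p = 0.8, adjusted 0.8), which turned to -0.13 when WT replicate 3 was left out. The Krt19 to Krt8 ratio, biliary over hepatocyte, differed by 0.50 ± 0.28 on the log2 scale (SE; exact permutation p = 0.3, adjusted 0.4), and WT replicate 3, at 0.0117, lay above 2 of the Vps15LKO livers at 0.0104 and 0.0113. The other biliary to hepatocyte pairs, chosen after their values were seen, did not overlap between the groups: the log2 difference was 0.63 for Krt7 over Krt8 and 0.79 for Krt7 over Krt18, and Krt18 over Krt19 differed by -0.67. Of all 15 pairs among the keratins other than Krt20, 7 did not overlap, and no such pair can give an exact permutation p below 0.1. Krt8 and Krt18 together held 98.8%, 99.0% and 98.7% of the summed level per kb of the 7 keratins in WT and 98.2%, 98.2% and 98.0% in Vps15LKO. That share did not overlap between groups and differed by -0.71 percentage points (SE 0.112; exact permutation p = 0.1, the smallest possible, adjusted 0.4). Krt5 and Krt17 are outside this sum, and since they had reads in Vps15LKO only, counting them would lower the Vps15LKO share further.

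**Figure D2:**
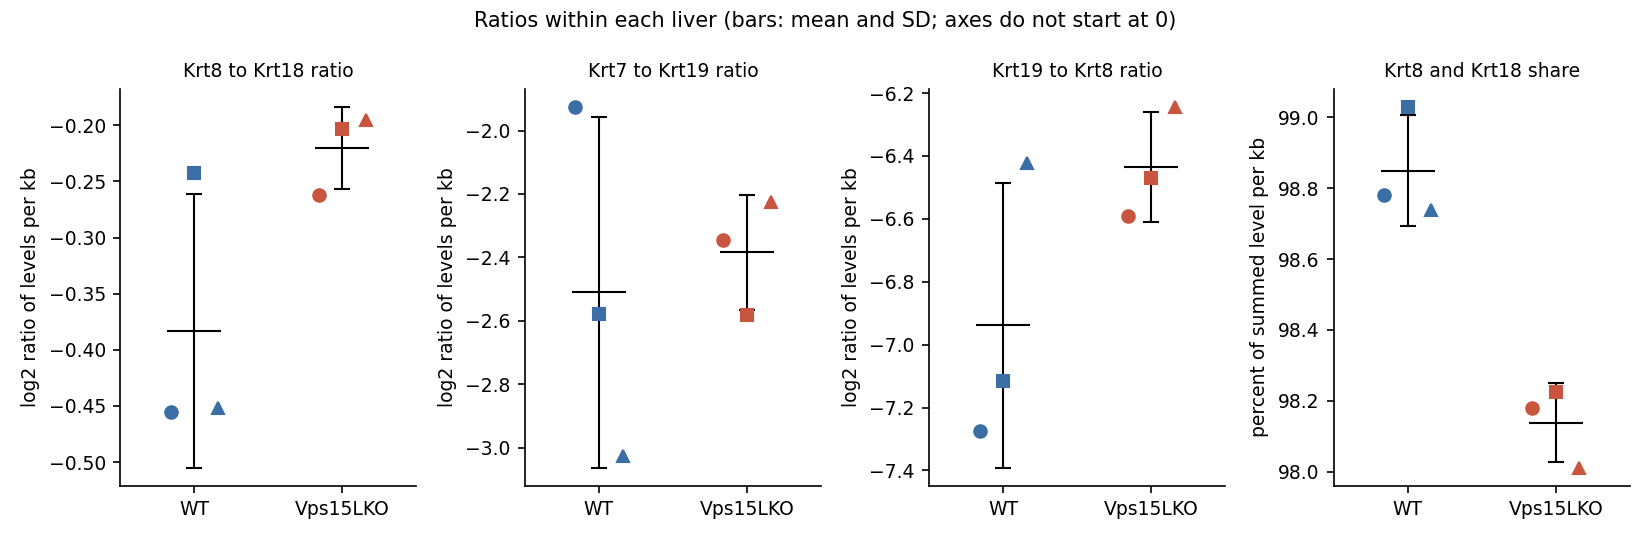
Log2 ratio of levels per kb for the 3 keratin pairs and percent of the summed level of the 7 keratins held by Krt8 with Krt18 (vertical axes, not starting at 0), by liver, in WT (blue) and Vps15LKO (red), with circles, squares and triangles for replicates 1, 2 and 3 and bars for the mean ± SD (n = 3). The groups overlap in the 3 ratios plotted and separate in the share, which lies lower in Vps15LKO, moving from between 98.7% and 99.0% to between 98.0% and 98.2%.

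The size of each keratin's change depended on the scaling. Under total-read scaling, where the median gene stood at 0.70, the log2 fold changes were 2.37 for Krt8, 2.21 for Krt18, 2.82 for Krt19, 2.92 for Krt7, 6.02 for Krt20, 2.68 for Krt23 and 3.12 for Krt80. Under quantile normalization, which gives all libraries the same distribution of values, the order of the pairs turned: Krt8 and Krt18 changed by 2.53 and 2.33, and Krt7 and Krt19 by 1.57 and 1.56. The remaining keratins stood at 4.22 for Krt20, 1.53 for Krt23 and 1.67 for Krt80 on that scale. All 7 were called higher under each scaling. The ratios above are free of size factors, but quantile normalization moves each gene by its level and so changes them too.

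**Figure D3:**
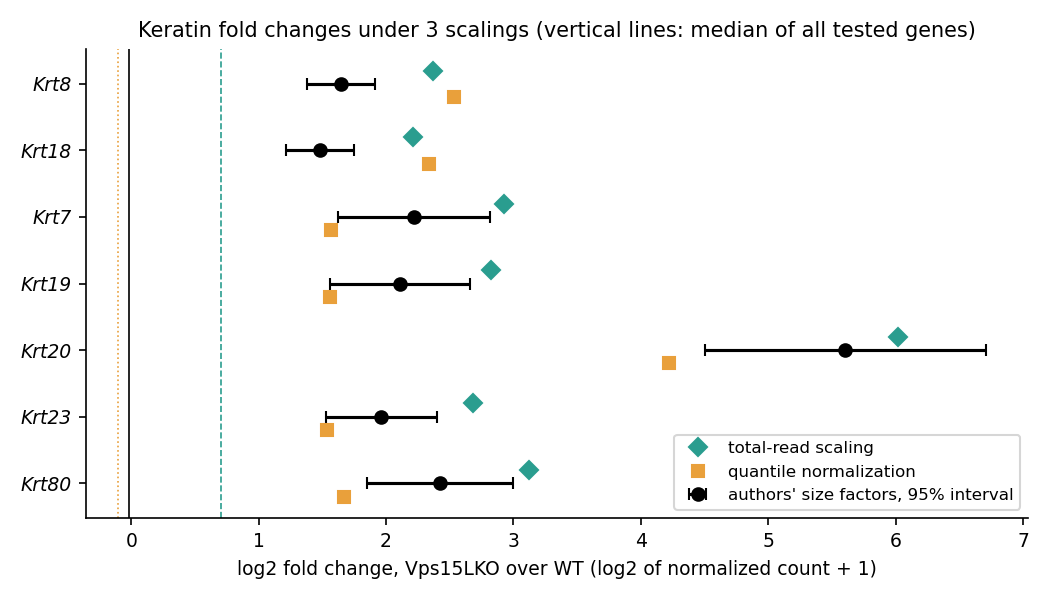
Log2 fold change of Vps15LKO over WT (horizontal axis, log2 of normalized count + 1) for each keratin under the authors' size factors (black, with 95% confidence intervals), total-read scaling (green) and quantile normalization (orange), with vertical lines at the median of all tested genes under each. All points lie above the 3 medians, and orange lies to the right of black for Krt8 and Krt18 but to its left for the other keratins.

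The rest of the keratin family was mostly silent. Of 46 other keratin genes in the table, 27 had no read in any liver and 40 had none in WT. Krt5 and Krt17 alone reached the filter, both through the Vps15LKO livers only, so they could be called in no other direction than higher. Krt5, the type II keratin of basal epithelial cells, had no read in the 3 WT libraries and 349, 311 and 466 reads in Vps15LKO (266.5, 252 and 330 normalized counts), at least 72.1-fold higher against a floor of 3 reads per WT library. Krt17, a type I keratin of basal and injured epithelia, had no WT read and 64, 40 and 60 reads in Vps15LKO, at least 10.5-fold higher by the same floor. Per kb, Krt5 (129 ± 18.8, SD, n = 3) stood in the range of Krt23 in Vps15LKO, and Krt17 (26.6 ± 5.35) overlapped with Krt20. Without the filter Krt24 and Krt83 were called as well, and Krt24 had 8 reads in each Vps15LKO library and none in WT. Of 27 keratin genes on chromosome 11, 12 had at least 1 read, and of 26 on chromosome 15, 14 had at least 1. Krt10, a keratin of differentiated epidermis separated from Krt20 by 39038 bases, had 10.6 to 16.2 in WT and 11.3 to 16.04 in Vps15LKO livers (normalized counts), too few for the test.

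**Figure D4:**
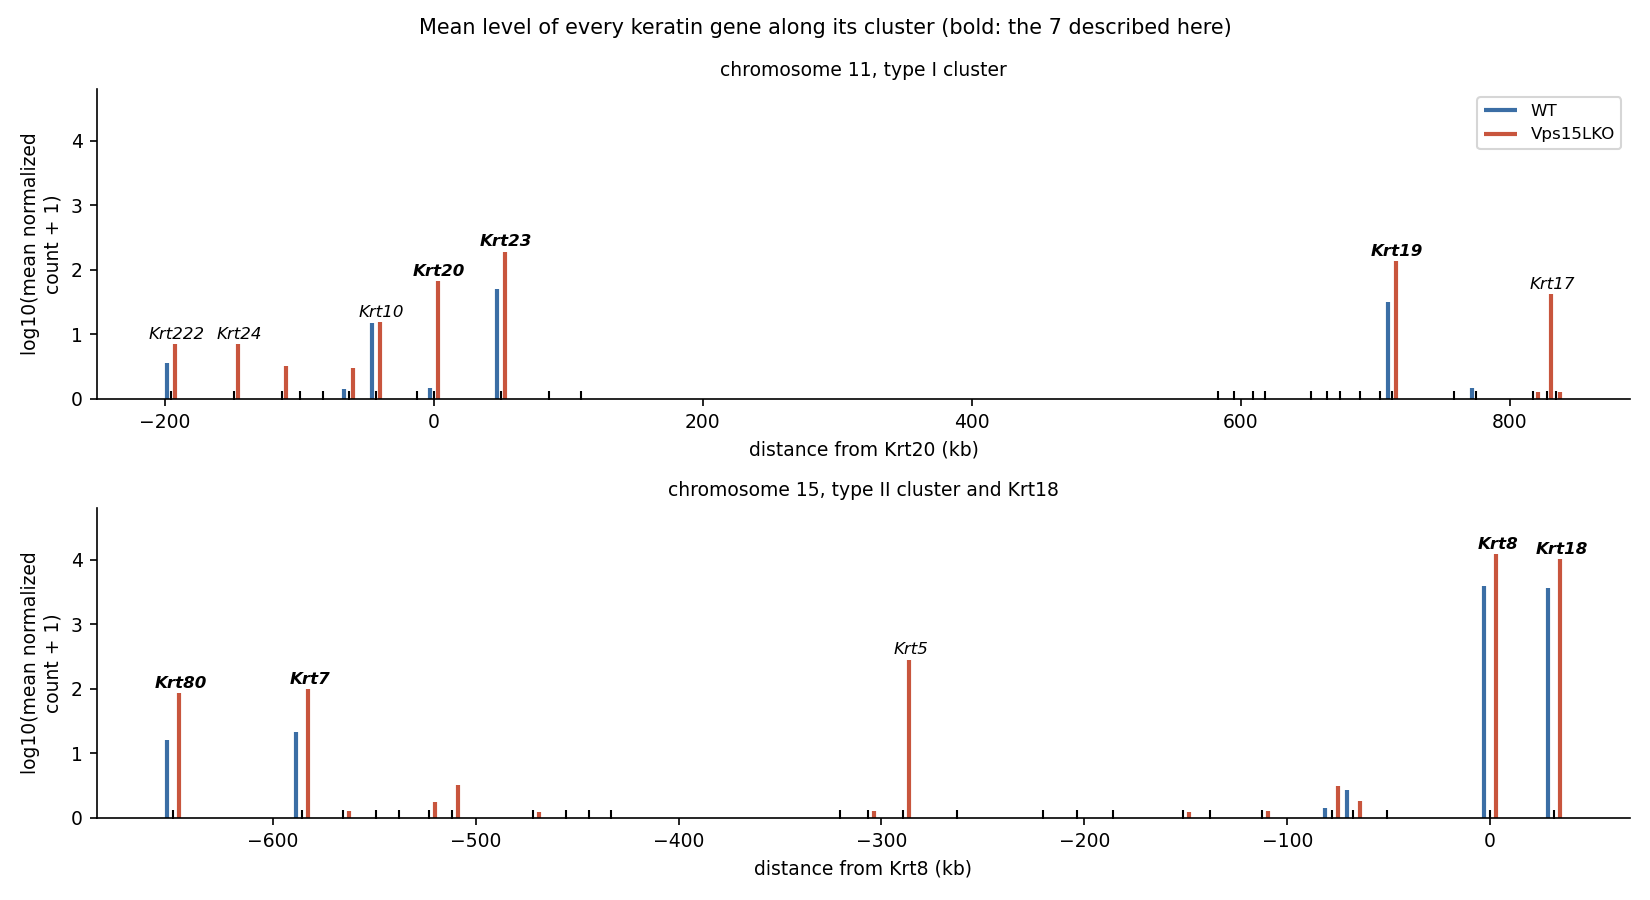
Mean normalized count (vertical axis, log10 of the mean + 1) of every protein-coding keratin gene, WT in blue and Vps15LKO in red, against the distance from Krt20 on chromosome 11 (top) and from Krt8 on chromosome 15 (bottom) in kb, with ticks on the baseline for genes. The keratins with signal are scattered among genes with none, and Krt5, Krt17, Krt20 and Krt24 have red bars with no visible blue bar or nearly none.

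Neighbouring or look-alike genes could share reads with these keratins. Krt8-ps, the processed Krt8 pseudogene, had 6.63, 12.5 and 9.44 normalized counts in WT and 31.3, 31.6 and 43.1 in Vps15LKO, or 163 reads against 57024 on Krt8 in all libraries together, and its log2 fold change was 1.81 ± 0.31 (SE; limma adjusted p = 0.000943), although it was not called under quantile normalization. A Krt18 look-alike, Gm5200, held 1 read. Exons of Krt8 overlap the opposite-strand transcript Gm36026 by 101 bases, those of Krt80 overlap Gm35853 by 263 and those of Krt7 overlap Gm671 by 77. Gm36026 averaged 249 and 809 normalized counts in WT and Vps15LKO, Gm35853 6.52 and 29.0, and Gm671 0 and 1.52. The kit marks strand, but the strand setting of the count is not given in the sources used here, so reads in these overlaps are uncertain.

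Cell type markers moved beside the keratins. All 12 hepatocyte markers were present. Total-read scaling called 11 lower, against 11.1% of tested genes, and quantile normalization 8, against 37.6%. Under the authors' size factors 11 were called lower, against 33.0%, with a median log2 fold change of -1.92. The exception was Alb, albumin itself, at -1.48 (limma adjusted p = 0.366), although its groups did not overlap and limma without a trend, edgeR, DESeq2 and limma voom each called all 12 lower. The largest falls were Serpina1e (-3.49), a secreted protease inhibitor with near-identical gene copies that may share its reads, and Cyp2e1 (-3.47), a pericentral cytochrome P450. Serpina1e rests in part on WT replicate 1 and stood at -2.78 without it. The summed level of the hepatocyte markers was 3035560 to 3595540 in WT and 850315 to 1295160 in Vps15LKO livers (normalized counts). Of 16 cholangiocyte markers, 14 were tested and all 14 were called higher, against 33.5% of all tested genes, with a median of 4.18. All 14 were also called higher under total-read scaling, against 66.7%, and under quantile normalization, against 30.4%. Of these, 3 (Cldn4, Cftr and Cldn7) passed the filter through the Vps15LKO livers only and could not have been called lower, and with at least 20 in all 6 livers 8 were tested and called higher. Their summed level was 2232 to 2662 in WT and 20014 to 34041 in Vps15LKO livers (normalized counts). Cldn4, a tight junction claudin, rose by 8.01 and Cftr, the chloride channel of bile duct cells, by 5.66 on the log2 scale. The change of Krt19 stood below those of most of them, since 10 of the 14 lay above its 95% confidence interval (1.56 to 2.66), 2 within it and 2 below. Sctr, the secretin receptor of cholangiocytes, was too low for the test, with 0 to 1.35 in WT and 19.4 to 43.9 in Vps15LKO. Like the keratins, 13 of the 14 were highest in Vps15LKO replicate 3, against 55.2% of all genes called higher. The part of bile duct cells in the keratin values was not tested.

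Other tissues that make these keratins were checked in the same way. Of 7 mesothelial markers, a cell layer of the liver surface rich in Krt7, Krt8, Krt18 and Krt19, 5 were tested, none was called higher and Muc16 was called lower (-1.21), against 33.5% higher and 33.0% lower over all tested genes. Total-read scaling called 2 higher and none lower, against 66.7% and 11.1%, and quantile normalization none higher and 3 lower, against 30.4% and 37.6%. Leaving out WT replicate 3 gave 1 higher and 1 lower, and leaving out Vps15LKO replicate 2 gave 2 lower. Their summed level was 247 to 290 in WT and 216 to 288 in Vps15LKO livers (normalized counts). Wt1 and Upk1b were too low for the test and moved in opposite directions, each without overlap between the groups. Wt1 was higher in Vps15LKO, with a mean of 10.5 normalized counts in WT and 24.8 in Vps15LKO. Upk1b was lower, with means of 20.8 and 10.5. Of 8 intestinal markers, Cdx2 and Sis had no read in any liver, while Cdh17 (7.51) and Vil1 (3.64), which passed the filter through Vps15LKO only, rose and Fabp2 was lower (-0.99). The summed intestinal level was 610 to 728 in WT and 613 to 677 in Vps15LKO livers (normalized counts). Fabp2 held most of the WT sum, with a mean of 619, and averaged 313 in Vps15LKO, where Cdh17 averaged 242. Of 7 pancreatic acinar markers Cpa1, Cpb1 and Pnlip had no read, and Cela1 alone was tested and was lower (-1.69). Their sum was 299 to 447 in WT and 100.4 to 120 in Vps15LKO livers (normalized counts). Of 8 stratified epithelium markers, Trp63, the regulator that defines basal epithelial cells, had at most 1.35 normalized counts in any liver, while Sprr1a (8.73, filter passed through Vps15LKO only) and Sfn (5.28) rose and Perp was lower (-0.69). Their sum was 2268 to 2624 in WT and 3307 to 3664 in Vps15LKO. Perp held most of the WT sum, with a mean of 2372, and averaged 1470 in Vps15LKO. Fabp2 and Perp were not called under total-read scaling. All 9 stellate cell and fibroblast markers were called higher, against 33.5% of all tested genes, led by Col1a1 (4.39) and Col3a1 (3.58), collagens of scar matrix, with sums of 7653 to 8178 and 33007 to 38409. Of 8 macrophage markers 6 were called higher, led by the lysosomal protein Cd68 (3.15) and the lysozyme Lyz2 (2.45), against 33.5% of all tested genes, with sums of 6684 to 8128 and 21294 to 24719. The other 2 were not called under the size factors of the authors: Clec4f stood at 0.40 and Timd4 at -0.62 (0.10 under total-read scaling), both markers of resident Kupffer cells, while Cd5l (1.39) and Marco (1.08), also known from these cells, were called higher. Quantile normalization called 7 of the 8 higher and Timd4 lower, against 30.4% and 37.6% of all genes, and total-read scaling called 7 higher, against 66.7%. The part of these cells was not tested, and neither of the last 2 lists holds a keratin.

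Most of the tested intermediate filament genes other than keratins were called higher too. Of 16 in the list, 8 were tested, 6 were called higher, against 33.5% of all tested genes, and none lower, with a median log2 fold change of 1.34 against -0.02 over all tested genes. Total-read scaling called all 8 higher, against 66.7% of all genes, and quantile normalization 5, against 30.4%. Vim, the vimentin of mesenchymal cells, had 464, 496 and 532 normalized counts in WT and 3084, 2856 and 4159 in Vps15LKO, a log2 fold change of 2.74 ± 0.14 (SE; limma adjusted p = 1.81e-06). Nes, the nestin of progenitor and stellate cells, rose by 2.22. Lmnb2 and Sync, at 0.16 and 0.30, were not called.

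Genes of proteins that anchor keratin to junctions and other filaments were examined next. Of 16 tested of 17 in the list, 11 were called higher and 1 lower, against 33.5% and 33.0% of all tested genes, with a median of 0.68. Total-read scaling called 15 higher and none lower, against 66.7% and 11.1%. A fold of at least 2 left 3 of the 16 called, all higher, against 3228 of 15430 genes called higher by that rule. Pkp1, a desmosomal plakophilin of stratified epithelia, rose most, from 0, 2.50 and 5.39 normalized counts in WT to 76.4, 85.1 and 87.7 in Vps15LKO. Its log2 fold change of 4.90 became 4.15 without WT replicate 1 and 5.49 without WT replicate 3, and it passed the filter, like Evpl and Pkp3, through the Vps15LKO livers only. Evpl, the envoplakin of the cornified envelope, followed at 3.19. Pkp4, a junctional armadillo protein, was lower (-0.65), but stood at 0.08 and was not called under total-read scaling.

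Of 9 tested genes of 10 that encode proteins found in Mallory-Denk bodies, 5 were called higher and 3 lower, or 55.6% and 33.3% against 33.5% and 33.0% of all tested genes. Total-read scaling called 6 higher and 1 lower (66.7% and 11.1%), the same shares as over all genes under that scaling. Quantile normalization called 6 higher and 1 lower too, against 30.4% and 37.6% of all genes. Sqstm1, which encodes p62, had 10952, 10595 and 9025 normalized counts in WT and 19129, 18332 and 18299 in Vps15LKO, a log2 fold change of 0.87 ± 0.14 (SE; limma adjusted p = 0.000563). Its rise was thus smaller than that of Krt8 or Krt18 under these size factors, although the difference was not tested. Under the authors' size factors the largest rises were those of the small heat shock genes Cryab (1.91) and Hspb1 (1.89), followed by Tgm2 (1.70), a transglutaminase that crosslinks keratins. Under quantile normalization Tgm2 (2.51) and Sqstm1 (1.97) stood above Hspb1 (1.85) and Cryab (1.67). Hspa1b, a stress-inducible Hsp70, was lower (-1.60) under all 3 scalings, and Vcp (-0.64), a ubiquitin-dependent unfoldase, was lower only under the authors' size factors among them. The third, the autophagy receptor Nbr1, stood at -0.55 under those size factors and at 0.17 under total-read scaling.

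Of 14 tested genes of 16 in a list of transcription factors known to act on simple-epithelial keratin genes, 11 were called higher, against 33.5% of all tested genes, and none lower, with a median of 1.65. This list shares genes with the cholangiocyte markers, Sox9 among them. Total-read scaling called all 14 higher, against 66.7% of all genes, and quantile normalization 12, against 30.4%. Fosl1, an AP-1 subunit, rose from 2.65, 0 and 4.04 normalized counts to 124, 112 and 116, and Klf5, a factor of epithelial progenitors, from 2.65, 7.49 and 8.09 to 71.8, 48.6 and 97.6. Both passed the filter through the Vps15LKO livers only, and the log2 fold change of Fosl1, 5.49, was 4.78 without WT replicate 2. Sp1 and Sp3 were not called (-0.20 and -0.21). Cdx1, an intestinal factor that acts on Krt20, had at most 0.810 normalized counts in any liver and Cdx2 had no read.

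**Figure D5:**
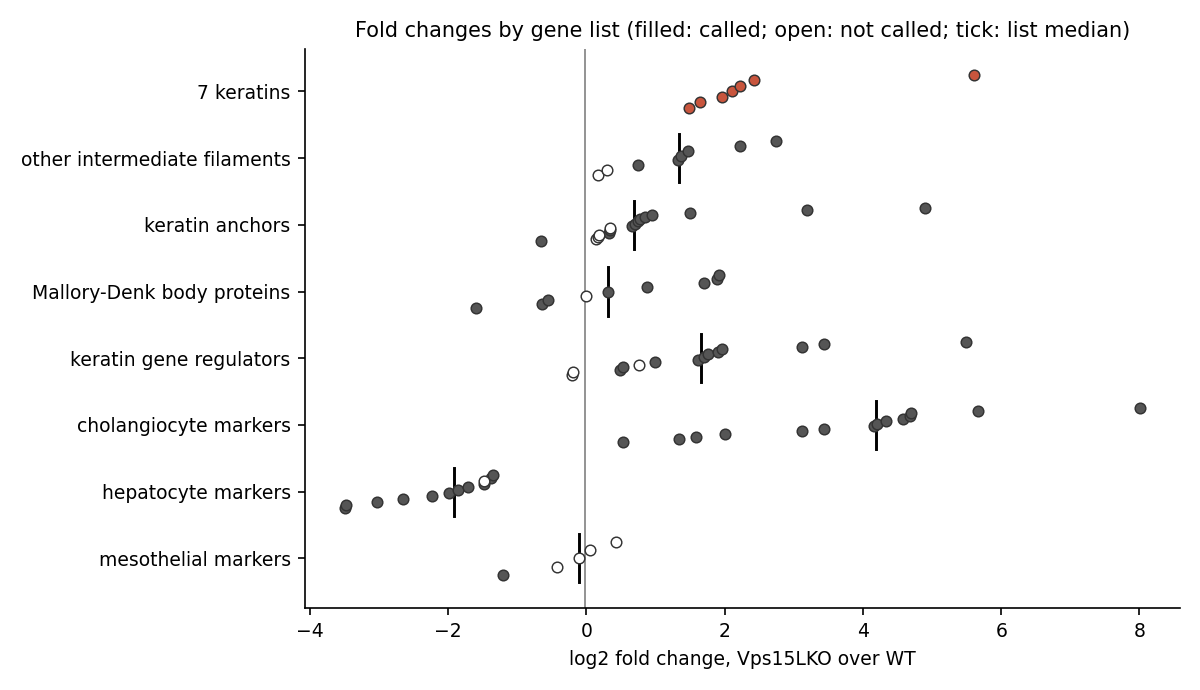
Log2 fold change of Vps15LKO over WT (horizontal axis) of each tested gene in the 7 keratins (red) and in the lists of related and marker genes (grey), filled where called and open where not, with a tick at the median of each grey list and a line at the median of all tested genes. Keratins lie between 1.48 and 5.60, away from the hepatocyte markers, which lie at -1.35 or below. Krt20 alone lies above the median of the cholangiocyte markers (4.18), but Krt20 and 3 of those 14 markers passed the filter through the Vps15LKO livers only.

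The genes whose pattern was most like each keratin were found by the distance over the 6 livers of log2 values measured from the WT mean, so that a small distance needs a like fold change and like deviations of single livers. For Krt8 these were Chst12 (distance 0.091), a chondroitin sulphotransferase, and Hdac7 (0.093), a class IIa deacetylase, which had 174, 182 and 169 normalized counts in WT and 528, 477 and 593 in Vps15LKO. For Krt18 they were Rassf1 (0.122) and Ifitm1 (0.149). Partner keratins were not each other's nearest genes, and Krt18 was the 71st nearest to Krt8 while Krt8 was the 86th nearest to Krt18. For Krt19 the nearest were Mxra7 (0.214) and B4galt2 (0.221), for Krt7 they were Adm (0.228) and Slc52a3 (0.244), and Krt19 was only the 279th nearest to Krt7. Krt20 had no close match, with Lcn2, the iron-siderophore binding lipocalin, at 0.561 and the tetraspanin Cd63 at 0.744. For Krt23 they were Rtl5 (0.224) and Cd6 (0.231), and for Krt80 the nearest was Brsk1 (0.261). Krt7 and Krt80 ranked 26th and 27th nearest to each other. The measure rests on 6 livers, and 5163 genes were called higher in all. For keratins with few reads, such as Krt7 with 18, 14 and 14 in WT and Krt20 with 0, 0 and 1, counting noise enters the distances and ranks.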

How the data were processed

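Total RNA of 6 livers was poly(A)-selected and sequenced by the authors on a DNBSEQ platform with a kit that marks strand. They filtered reads with SOAPnuke, mapped them to GRCm38/mm10 with HISAT2, counted them per Ensembl gene with featureCounts (Subread) and divided counts by DESeq2 size factors. Versions, strand and multi-mapping settings are not given in the sources used here. The deposited values are thus a signal, a count divided by 1 size factor per library. 100% of values came out as whole reads (tolerance 0.01), and 55227 of 56305 genes matched GENCODE M21.

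Log2(value + 1) was fitted by genotype with limma 3.58.1 (lmFit, eBayes with a trend; R 4.3.3) over 15430 genes with at least 20 in at least 3 livers, with Benjamini-Hochberg adjustment over all of them. Calls required a 1.2-fold change or more with an adjusted p below 0.05. The code was tested on simulated data. edgeR 4.0.16 called 10320 genes and DESeq2 1.42.0 called 10026 on the recovered reads, against 10262 by limma. Ratios used exact permutation tests. No library pair within a group agreed within sampling noise (chi-square per gene 14.6 to 40.8).

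The members and gene lists were chosen with earlier results of these data known. Named genes were the 7 keratins, Pik3r4, Sqstm1, Vim, keratin pseudogenes with reads, the 2 largest called rises and falls of each list, and the 2 genes nearest to each keratin. Others (Krt10, Krt24, Krt83, Cldn7, Pkp3, Tgm2, Cd5l, Marco, Wt1, Upk1b, markers at or near 0, genes not called, overlapping transcripts) were added after their values were seen. Alternatives were other pseudocounts, filters, scalings, tests and thresholds, each liver left out and a replicate block. Values of a few single genes covered by these rules are not reported here.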

Additional observations from a re-analysis of the deposited data

How the results depend on the processing

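All 144 values of single keratins under the alternatives kept their direction and call. Of the counts, a minimum of 20 in all 6 livers left 4 keratins to test, all 4 called. A fold of at least 2 gave 5185 called genes, 3 called keratin anchors and 4 called Mallory-Denk body genes, and without the filter on low values 4 other keratins were called. The filters change which genes are tested, whereas the higher fold changes the rule for a call on the same genes. Pik3r4 stood at 0.19 under total-read scaling (cause not tested) and its fold missed the minimum of 2 at -0.54. Leaving out 1 liver at a time gave 9098 to 10222 called genes, 7 to 7 keratins, 2 to 2 other keratins, 5 to 6 other intermediate filament genes, 9 to 12 anchors, 7 to 8 Mallory-Denk body genes and 10 to 13 regulators. The log2 difference of the Krt8 to Krt18 ratio then ran from 0.13 to 0.23, of the Krt7 to Krt19 ratio from -0.13 (without WT replicate 3, cause not tested) to 0.42, of the Krt19 to Krt8 ratio from 0.33 to 0.76, and the share of Krt8 with Krt18 fell by 0.62 to 0.77 points. Same-numbered livers did not deviate together (correlations -0.0099, -0.011 and 0.049), and the replicate block gave 10048 called genes and all 7 keratins. Of the 7 keratins, Krt20 with 1 WT read is the one whose fold the depth limits most.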
